A study of Mus musculus with 67 samples.

Results

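The p3 progenitors of the ventral spinal cord were followed across 1 day of differentiation, from day 4 to day 5, by CaTS-ATAC, in which fixed cells are transposed, stained for intracellular transcription factors and sorted before their open chromatin is sequenced. The p3 samples were taken by their labels, 5 at day 4 and 5 at day 5, which makes 10 of the 67 samples of the series. All came from the male mouse embryonic stem cell line HM1, unmodified and the only line used, differentiated to a posterior neural fate. All had received bFGF and LGK, then bFGF with CHIR99021 (a WNT pathway activator), SB-431542 and DMH1 (inhibitors of TGF-beta and BMP receptors), and retinoic acid with SAG after day 3. SAG is a small molecule agonist of Smoothened that stands in for the Sonic hedgehog (Shh) gradient. At day 4 there were 3 samples from 100 nM SAG (replicates 1, 2 and 3) and 2 from 500 nM (replicates 1 and 3). At day 5 there were again 3 from 100 nM (replicates 1, 2 and 3) and 2 from 500 nM (replicates 2 and 3). The p3 gate held cells positive for SOX2 and NKX2.2 and negative for OLIG2. Comparisons were made with pMN (OLIG2+) from the same concentrations at the same days, 11 samples, and more briefly with p2 (10 and 100 nM SAG) and p0-1 (0 and 10 nM), 12 samples each. NMPs, the neuromesodermal progenitors sorted at day 3, and p3 and pMN at day 6 were used in the main analyses only as levels on either side.

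The p3 domain lies next to the floor plate, the most ventral strip of the neural tube, and gives rise to V3 interneurons. High Shh signaling induces NKX2.2, a homeodomain repressor that excludes the pMN fate, and FOXA2, a forkhead factor able to open closed chromatin, which is known for its role in the floor plate. Open chromatin marks promoters and the distal elements through which such factors act, and the accessibility of distal elements is known to change more between cell states than that of promoters.

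Reads in elements numbered between 9298160 and 16667003 in 4 of the 5 day 4 samples and 23973955 in the other, and between 15464288 and 23859572 at day 5. At 100 nM all day 4 samples were shallower than all day 5 samples, while at 500 nM the depths of the days overlapped. The values below are normalized counts, the reads of an element divided by the size factor of its library. A higher value in sorted bulk cells can come from more cells of the gate with an open element or from more open copies per cell, and these cannot be told apart.

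The sort could be checked at the marker genes. No element is assigned to Nkx2-2 in the annotation, so the element that spans the gene, annotated to the divergent 6430503K07Rik (chr2:147183999-147190942), was used. It stood between 2259.9 and 2927 at day 4 and between 3046 and 3550.3 at day 5 in p3, against means of 1819 and 1925 in pMN, and the cell types did not overlap on either day. At the element inside Olig2, p3 had means of 831 and 1040.3 on the 2 days (SDs of 87.7 and 116, n = 5 each), against 1358 and 1952 in pMN, again without overlap. Both orders are those of the gates, although both elements were open in both cell types. Of the NMP genes, the elements nearest to T (Brachyury), Cdx2 and Nkx1-2 were lower at day 5 than at day 4. Cdx2 went from 3686 in NMPs to 635 and 343 in p3, where the medians of all tested elements were 296 and 333. The neuronal gene Stmn2 had 337 ± 32.4 and 177 ± 5.26, and Tubb3 865 ± 157 and 1008 ± 210.5 (SD, n = 5 each), so neuronal markers showed no common direction.

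Sequences of 6 elements are shown first, because the changes that follow are changes at such places: 4 that opened, among them those with the 2 largest increases and 1 near Foxa2, and 2 that closed. Each is the central stretch of 300 bases, read from GRCm38 (mm10) on the plus strand, 5′ to 3′. Capitals mark matches on either strand to a SOX motif (ACAAAG or ACAATG), a homeodomain motif (TAATTA) or a FOXA motif (TGTTTAC).
Gained, near Gm12130 (chr11:38568669-38568968): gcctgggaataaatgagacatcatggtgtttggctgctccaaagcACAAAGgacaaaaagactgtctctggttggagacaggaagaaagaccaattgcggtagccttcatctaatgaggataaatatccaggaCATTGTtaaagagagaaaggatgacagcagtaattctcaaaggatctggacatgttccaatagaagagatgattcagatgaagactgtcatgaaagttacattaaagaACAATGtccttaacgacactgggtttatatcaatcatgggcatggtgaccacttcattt
Gained, near Caap1 (chr4:94371117-94371416): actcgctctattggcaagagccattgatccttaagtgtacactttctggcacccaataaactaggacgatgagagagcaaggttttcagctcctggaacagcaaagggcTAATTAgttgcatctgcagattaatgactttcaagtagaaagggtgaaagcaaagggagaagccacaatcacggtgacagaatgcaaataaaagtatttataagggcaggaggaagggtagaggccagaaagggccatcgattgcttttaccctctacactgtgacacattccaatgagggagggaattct
Gained, near Foxa2 (chr2:147886177-147886476): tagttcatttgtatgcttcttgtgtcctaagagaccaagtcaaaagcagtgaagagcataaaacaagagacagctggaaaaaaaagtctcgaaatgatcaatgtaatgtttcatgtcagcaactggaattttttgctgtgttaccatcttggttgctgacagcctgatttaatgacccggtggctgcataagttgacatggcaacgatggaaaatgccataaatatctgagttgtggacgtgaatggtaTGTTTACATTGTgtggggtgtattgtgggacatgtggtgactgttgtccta
Gained, near Spon1 (chr7:113688256-113688555): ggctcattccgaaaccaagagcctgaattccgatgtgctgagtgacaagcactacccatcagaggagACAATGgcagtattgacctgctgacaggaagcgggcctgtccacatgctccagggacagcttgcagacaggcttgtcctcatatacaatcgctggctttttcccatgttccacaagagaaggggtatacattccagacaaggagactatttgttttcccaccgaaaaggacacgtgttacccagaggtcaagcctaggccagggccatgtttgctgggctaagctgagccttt
Lost, in Dnah5 (chr15:28363611-28363910): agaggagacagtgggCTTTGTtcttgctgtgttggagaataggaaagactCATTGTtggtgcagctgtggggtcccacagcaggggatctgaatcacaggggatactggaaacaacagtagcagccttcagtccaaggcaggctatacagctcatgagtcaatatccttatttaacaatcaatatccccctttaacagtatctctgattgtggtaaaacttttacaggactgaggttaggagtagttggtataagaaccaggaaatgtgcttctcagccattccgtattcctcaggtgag
Lost, in Bnip3l (chr14:66990501-66990800): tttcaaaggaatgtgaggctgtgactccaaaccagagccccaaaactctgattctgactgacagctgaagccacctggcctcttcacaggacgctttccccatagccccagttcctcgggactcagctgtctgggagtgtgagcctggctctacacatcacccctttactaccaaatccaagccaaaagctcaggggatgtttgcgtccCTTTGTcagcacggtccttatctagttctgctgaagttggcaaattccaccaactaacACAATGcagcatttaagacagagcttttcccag
The Gm12130 stretch held 3 SOX matches, and the stretches in Dnah5 and Bnip3l 2 each. In the stretch near Foxa2 a FOXA match and a SOX match overlap and form the single run of capitals. These matches are descriptions and not bound sites.

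Large changes of accessibility in p3 were mostly increases. An element was called when limma gave an adjusted p under 0.01 and the day term exceeded 2 in size on the log2(normalized count + 1) scale, with SAG concentration as a covariate. Of 30325 elements with a mean above 100 normalized counts over the 10 samples, 779 were gained, that is higher at day 5 (2.57% of those tested), and 82 were lost (0.27%). The gained elements rose by a median log2 difference of 2.40, the smallest being 2.00 and the largest 5.33, and the lost elements had a median of -2.22. All tested elements had a median difference of 0.10, promoter elements 0.08 and all others 0.12. The day 4 and day 5 samples did not overlap in 777 of the 779 gained and 80 of the 82 lost elements, nor in 30.5% of all tested elements. Since the filter was on the mean over both days, an element could pass it through the samples of 1 day. With a log2 threshold of 1 in place of 2, 3141 elements were gained (10.4%) and 871 lost (2.87%).

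**Figure D1:**
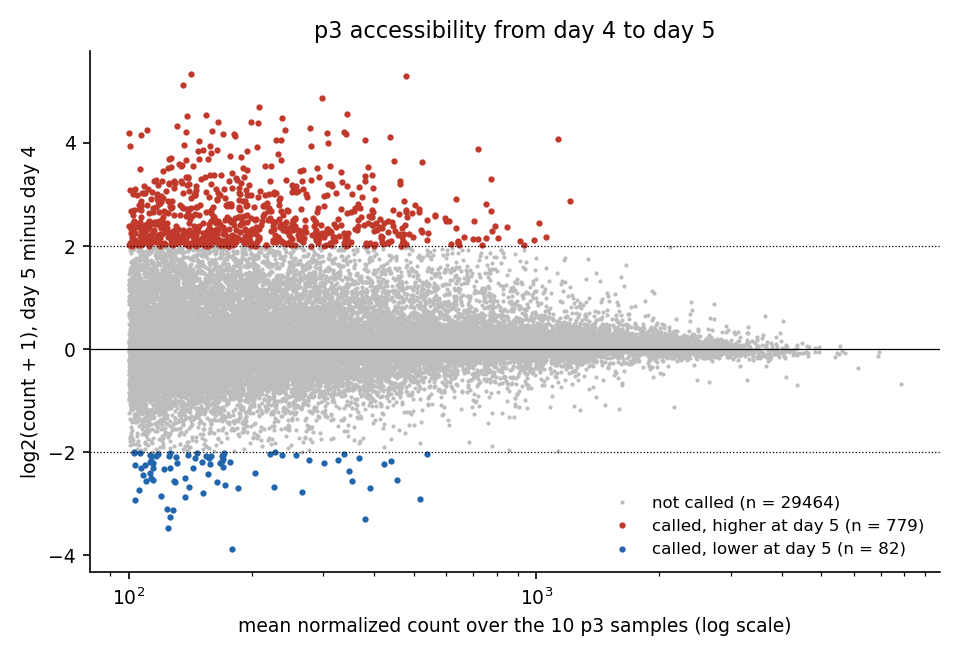
Each point is an element in p3. The horizontal axis is its mean normalized count over the 10 samples (log scale) and the vertical axis its log2(count + 1) at day 5 minus day 4. The 779 gained elements lie above 2 and the 82 lost elements below -2, most of both at low mean counts.

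The count of gained elements depended on a correction for base composition. With the trend of each sample on GC content removed, 467 of the 779 gained and all 82 lost elements stayed called, with 153 lost in all, and the share of calls that were gains went from 90.5% to 75.3%. Gained elements had a median GC content of 44.9%, lost elements 47.2% and all tested elements 52.9%. The sample medians were 0.17 higher at day 5 on the log2 scale, so a difference of that size is the shift of the whole table. Depth moved with the gains as well. The 2 shallowest day 5 libraries, replicate 2 at 100 nM and replicate 2 at 500 nM, were the 2 lowest day 5 samples at 60.6% of the gained elements, against 22.8% of all tested elements. At day 4 the 2 shallowest, replicates 1 and 2 at 100 nM, were the 2 lowest at 64.7% of the gained elements, against 18.2% of all tested. When reads were thinned to the shallowest library, 643 of the 779 stayed called. Among the 500 nM samples alone, whose depths overlapped, 505 stayed called.

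The 5 elements that rose most were taken from called elements without overlap between the days, so their separation was set by that choice. All were barely open at day 4 and passed the filter only through the day 5 samples. The first lay 48.8 kb upstream of Gm12130 (chr11:38568548-38569088, intergenic). Its normalized counts at day 4 were 4.04, 1.90 and 13.1 at 100 nM and 7.09 and 7.50 at 500 nM, and at day 5 they were 285, 182 and 265 at 100 nM and 354 and 299.9 at 500 nM. Every day 5 sample was far above every day 4 sample, and the log2 difference was 5.33 (SE 0.41, adjusted p = 6.76e-08). The second lay 186 kb downstream of the start of Caap1 (chr4:94370840-94371692, intergenic), with 18.2, 13.3, 30.2, 20.2 and 33.7 at day 4 and 1054, 623, 1095, 717 and 1179.8 at day 5, in the order of concentrations and replicates above. This was the element with the highest level among these 5 at day 5, and its log2 difference was 5.31 (SE 0.31, adjusted p = 3.77e-08).

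The third was 162 kb from Sox3, which encodes a SoxB1 factor of neural progenitors (chrX:60731027-60731846, intergenic). It had 12.1, 1.90, 7.89, 5.06 and 9.0 at day 4 and 402, 209, 278, 237 and 192 at day 5, a log2 difference of 5.13 (SE 0.45, adjusted p = 1.52e-07). The groups were far apart, though day 5 varied with a SD of 84.0. The other two were 293 kb from Tmem161b (chr13:84514945-84515673, mean 21.0 to 573, log2 difference 4.87, SE 0.36) and in an intron of Asap1, which encodes a GTPase-activating protein of the ARF family (chr15:64254894-64255865, mean 15.7 to 402, log2 difference 4.70, SE 0.32). All 5 were also near 0 in NMPs, between 0.808 and 6.15, and higher again in p3 at day 6, between 446 and 1658.

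The 5 elements that fell most, chosen in the same way and so again without overlap, went from well open to nearly closed within the day. The largest decrease was in an intron near 4933427I22Rik (chr4:139934860-139936014), with 228, 491, 298, 335 and 328 at day 4 and 15.2, 22.9, 29.0, 13.6 and 31.6 at day 5. All day 5 samples were far below all day 4 samples. The log2 difference was -3.87 (SE 0.31, adjusted p = 2.75e-07). The central 300 bases of this element are a short sequence repeated with small variations, and how uniquely reads map there was not checked. In an intron of Bnip3l, which encodes a mitophagy receptor (chr14:66990362-66990939), values of 151, 296, 221, 284 and 196 fell to 18.8, 12.7, 15.8, 23.4 and 29.1, a difference of -3.47 (SE 0.24, adjusted p = 3.04e-07).

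The most open of these 5 at day 4 lay 153 kb from Foxl1, which encodes a forkhead factor (chr8:121279651-121281044, intergenic), with 725, 1081, 452, 686 and 507 at day 4 and 73.6, 77.7, 53.6, 72.0 and 57.3 at day 5. Its log2 difference was -3.29 (SE 0.25, adjusted p = 2.59e-07). The fourth lay near Nectin3, an adhesion molecule gene (mean 228 to 23.5, log2 difference -3.26), and the fifth in an intron of Dnah5, which encodes an axonemal dynein heavy chain (chr15:28363292-28364229, mean 231 to 25.6, -3.13). Dnah5 was the gene with most lost elements, 2 of its 3 tested, the other being 3.5 kb from its start (mean 265 to 48.1, -2.42). NMP levels of the 5 were between 5.16 and 101, below the day 4 p3 level in each.

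**Figure D2:**
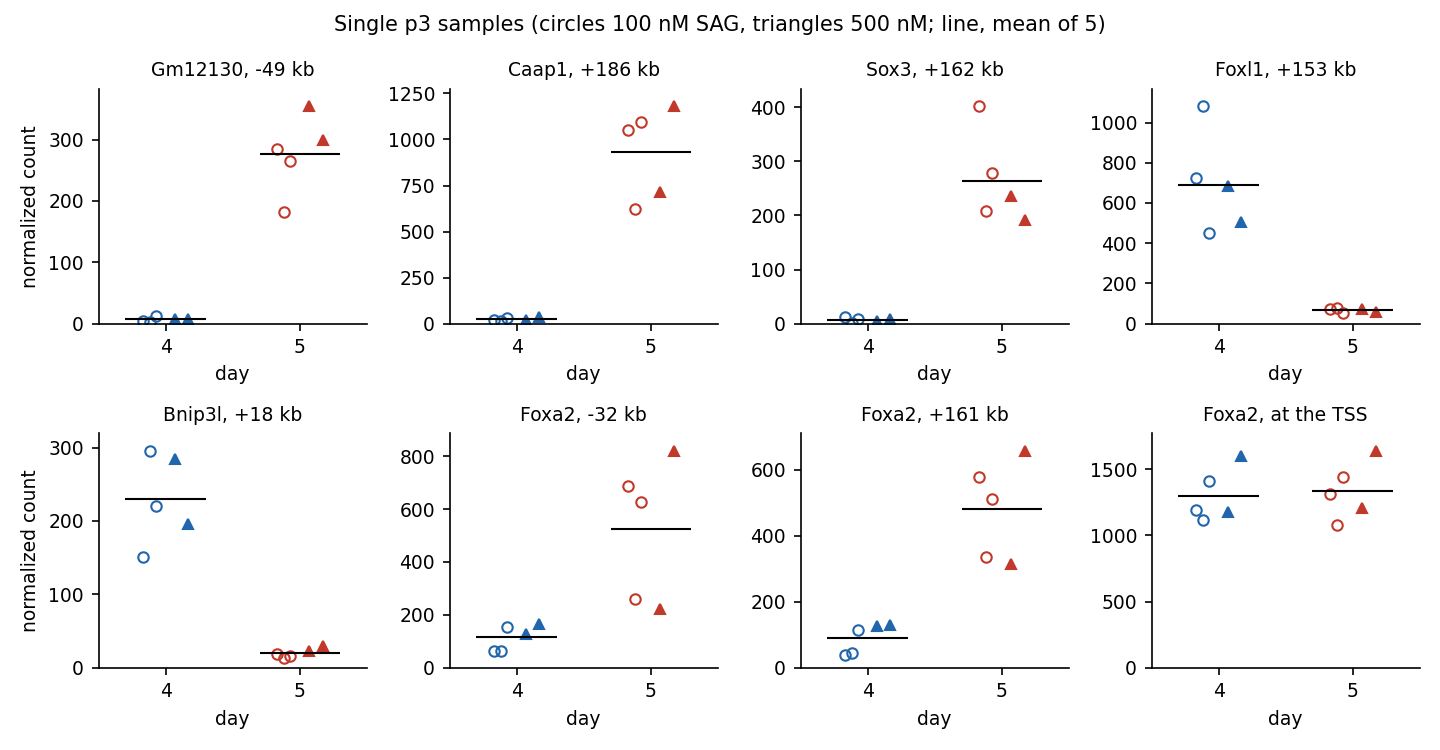
Normalized counts (vertical axis) of single p3 samples at day 4 and day 5 (horizontal axis) for 8 elements, with circles for 100 nM SAG, triangles for 500 nM and a line at the mean of 5. The elements near Gm12130, Caap1 and Sox3 rise from close to 0, those near Foxl1 and in Bnip3l fall, and the element at the Foxa2 start site has means of 1298 and 1336 while those 161 kb and 32.2 kb from it rise.

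Called elements were distal. Only 2 of the gained elements (0.257%) and 1 of the lost (1.22%) were annotated as promoter-TSS, against 22.9% of tested elements. Intergenic elements made up 50.1% of the gained and 54.9% of the lost, against 28.8% of those tested, and introns 47.0% and 43.9%, against 34.6%. The median distance to a start site was 63663 bp for gained elements and 7201 bp for all tested, and 57.1% of the gained lay beyond 50 kb. The nearest gene is therefore a label of position here. The 779 gained elements were labelled by 695 genes, 71 of which had 2 or more and 12 had 3 or more.

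Clusters of gained elements lay in a few regions. 4930567K12Rik labelled 4 gained elements of 5 tested, with log2 differences from 2.00 to 3.55; the smallest of these was called in 7 of 17 alternative analyses. Tmem161b labelled 3 of 8, from 293 to 404 kb downstream, and Caap1 3 of 5, within 171 to 191 kb. Nr2f1, which encodes the orphan nuclear receptor COUP-TFI, labelled 3 of 13, from 673 to 1196 kb upstream. The strongest of these (chr13:78870745-78872845) had 76.7, 43.6, 212, 166 and 238 at day 4 and 2237, 1629.7, 2441, 1764 and 2496 at day 5, so the lowest day 5 sample was far above all of day 4. Its log2 difference was 4.07 (SE 0.47, adjusted p = 1.32e-06). Kif5c, which encodes a neuronal kinesin heavy chain, had 3 of 4 elements gained, among them an intron 14.1 kb into the gene whose samples were between 79.6 and 105 at day 4 and between 608 and 736 at day 5 (log2 difference 2.75, SE 0.09, adjusted p = 2.84e-08).

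The motif content of the called elements was described without a test. In the central 300 bases, the SOX motif was present in 57.4% of gained elements (95% exact binomial interval 53.8 to 60.9) and in 72.0% of lost elements (60.9 to 81.3), against 39.1% of tested elements outside promoters. SOX factors bind such sites throughout neural progenitors, and both directions held more matches than other distal elements did. The homeodomain motif TAATTA was in 13.1% of gained elements (10.8 to 15.7), 6.10% of lost elements (2.01 to 13.7) and 6.21% of tested elements outside promoters. The FOXA motif was in 5.65% of gained elements, 4.88% of lost elements and 4.55% of tested elements outside promoters, with intervals for the gained (4.13 to 7.51) that take in the last value. GGGCGG, bound by KLF and SP factors, was in 4.88% of gained elements against 23.6%. These motifs differ in their own base composition, and so did the sets.

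Levels before day 4 and after day 5 placed the change in a longer course. The gained elements had a median of 7.81 normalized counts in NMPs at day 3, then 54.0, 312 and 461 in p3 at days 4, 5 and 6. Of the 779, 749 (96.1%) were lower in NMPs than in p3 at day 4, against 42.0% of all tested, and 650 (83.4%) were higher at day 6 than at day 5, against 56.6%. The median thus rose at each day. The lost elements had a median of 49.2 in NMPs, then 245, 48.8 and 23.4 in p3. In 74 of the 82 (90.2%) the NMP level was below that of day 4, and in 4 of the 82 day 6 was above day 5. Most of these elements were thus highest at day 4. A day 4 level above day 5 is how the set was chosen, and that choice also favors an NMP level below day 4.

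**Figure D3:**
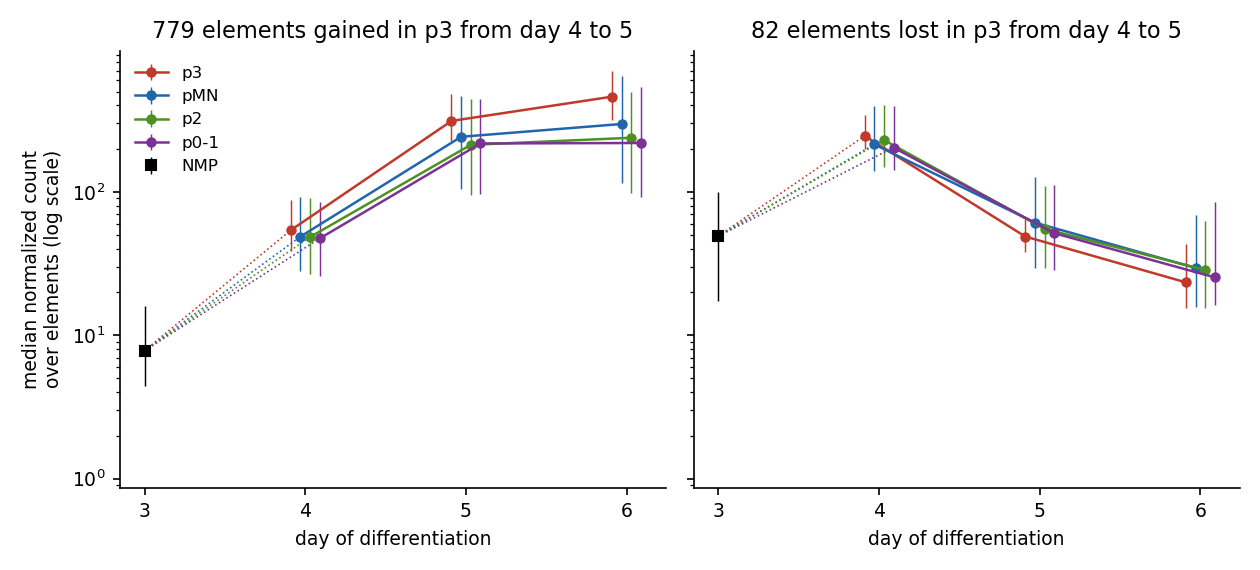
Median normalized count over the gained elements (first panel) and the lost elements (second panel) by day of differentiation, on a log scale, for NMPs and each sorted cell type, with bars from the lower to the upper quartile of the elements. In p3 the gained median passes from 54.0 to 312 to 461 and the lost median from 245 to 48.8 to 23.4, and the other cell types move in the same direction.

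The change was compared between SAG concentrations. With 100 nM samples alone 1088 elements were called (3.59% of those tested), 994 gained and 94 lost. With 500 nM samples alone 588 were called (1.94%), 516 gained and 72 lost. The 2 sets had 552 elements in common, 93.9% of the 500 nM calls and 50.7% of the 100 nM calls, all in the same direction. Of the pooled analysis, which used the same samples, the gained elements had a median difference of 2.62 at 100 nM and 2.13 at 500 nM, and the lost elements -2.32 and -2.22. The difference between concentrations was tested by an interaction term, and limma called 0 of 30325 elements (0.0%), the lowest adjusted p being 0.963, with 529 at an unadjusted p under 0.05. That is fewer than the 1 in 20 that would come without any difference. With so few samples per concentration and day, the absence of calls does not show that the changes were equal. With a log2 threshold of 1 it was also 0.

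Elements near genes of known roles were counted by lists. Each list is given by its gained and lost elements and its median beside the 0.10 of all tested elements, and no list was tested. Of all tested elements 2.57% were gained and 0.27% lost. For p3 and V3 identity genes, 0 of 43 elements were gained and 0 lost, and the median difference was 0.10. With a log2 threshold of 1, 9 of the 43 were gained (20.9%, beside 10.4% of all tested) and 1 lost (2.33%, beside 2.87%). The element at the start site of Nkx2-9, a relative of Nkx2-2 in the same domain, went from 1927 ± 224 to 2376 ± 122 (SD, n = 5 each), a log2 difference of 0.31 (SE 0.08, adjusted p = 0.00699), below the fold threshold. The element spanning Nkx2-2 had a difference of 0.33 (SE 0.08, adjusted p = 0.00395). With samples centred on their median the differences were 0.14 and 0.16. The transducers and feedback genes of the Hedgehog pathway, such as Gli1 to Gli3 and Ptch1, had 0 of 51 gained, 0 lost and a median of 0.21.

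The Foxa and floor plate list had 8 of 61 elements gained (13.1%, beside 2.57% of all tested), 0 lost and a median of 0.41. Among them were 3 near Foxa2, 2 near Shh, and 1 each near Spon1 and Ferd3l. Spon1 encodes F-spondin, secreted by the floor plate, and Ferd3l a bHLH factor known there. With GC correction 3 of the 8 stayed called (both at Shh and that at Spon1), with samples centred on their median 5, with thinned reads 6, and with 500 nM samples alone 0. In all 8 the 2 shallowest libraries of each day, those named above, were its lowest samples. Of the 38 tested elements of the list within 50 kb of a start site 1 was gained, so the list's share above the background came from more distant elements.

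At Foxa2 itself 14 elements were tested. Its start site (chr2:148044037-148046986) had 1189, 1115, 1411, 1174 and 1601 at day 4 and 1313, 1078, 1440.4, 1210.0 and 1639 at day 5. The groups overlapped throughout, and the log2 difference was 0.04 (SE 0.14, adjusted p = 0.807). In pMN the same element went from a mean of 872 to 406. Of the 3 gained distal elements around it, the first, at 161 kb (chr2:147885998-147886655, whose sequence is printed above), had 40.4, 45.5, 116, 126 and 129.7 at day 4 and 579, 336, 513, 313 and 658 at day 5. Its log2 difference was 2.49 (SE 0.41, adjusted p = 4.17e-05). Its neighbor at 158 kb (chr2:147888553-147889471) rose from a mean of 92.4 ± 49.3 to 426 ± 134 (SD, n = 5 each), a difference of 2.32 (SE 0.42, adjusted p = 8.05e-05).

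The last, 32.2 kb on the other side of Foxa2 (chr2:148078098-148080336), had 64.6, 64.5, 153, 127 and 166 at day 4 and 689, 259.7, 628, 223 and 821 at day 5. The days did not overlap, but the day 5 samples fell apart, with replicate 2 at both concentrations much below the rest. The difference was 2.11 (SE 0.51, adjusted p = 0.000893), and the call held in 9 of 17 alternatives and in 5 of 10 analyses that left out 1 library. Without day 4 replicate 1 or 2 at 100 nM, or day 5 replicate 1 or 3 at 100 nM or 3 at 500 nM, it was between 1.90 and 1.95, under the threshold. A further element 45.0 kb away on that side was just outside the threshold, at 1.99. At day 6 the 32.2 kb element stood at 1247 in p3 and 46.3 in pMN.

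At Shh, 2 elements 96.5 and 101 kb upstream were gained, both within introns of 9530036O11Rik by annotation. The element at 96.5 kb had a log2 difference of 2.17. That at 101 kb (chr5:28567399-28569144) had 218, 201, 338, 280.4 and 367 at day 4 and 1314, 1165, 1269, 1083 and 1283 at day 5, a clear separation and a log2 difference of 2.15 (SE 0.18, adjusted p = 3.7e-07). It also rose in pMN, from 136 to 580.0. The element nearest to the Shh start site had a mean of 118 ± 15.6 at day 4 and 199 ± 29.9 at day 5 (SD, n = 5 each), a difference of 0.74 (SE 0.14, adjusted p = 0.00177), below the fold threshold. The gained element upstream of Spon1 (chr7:113687886-113688925) had 141, 68.3, 154, 159 and 154 and then 860.3, 428, 762, 457 and 803, a difference of 2.28 (SE 0.33, adjusted p = 1.67e-05).

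Axon guidance genes had 12 of 150 elements gained (8.0%, beside 2.57% of all tested), 1 lost and a median of 0.31. The gained ones belonged to 10 genes, receptors and ligands alike: Robo1, Robo2, Dcc, Unc5d, Epha7 and Plxna2 among receptors, and Slit1, Slit3, Efna5 and Sema3c among ligands. The strongest was in an intron of Unc5d, a netrin receptor gene (chr8:28855182-28855869), with 14.1, 30.3, 31.6, 42.5 and 20.2 at day 4 and 558, 489, 559, 551 and 479 at day 5. These groups were tight and the log2 difference was 4.29 (SE 0.29, adjusted p = 4.89e-08). Elements near Epha7 (3.96, SE 0.41) and near Efna5, which encodes an ephrin ligand of such receptors (3.52, SE 0.30), followed, the former at a distance of 925 kb. The lost element lay 42.7 kb from Sema3e, a semaphorin gene (chr5:13982060-13983054), and fell from a mean of 771 ± 136 to 136 ± 44.1 (SD, n = 5 each), a difference of -2.53 (SE 0.25, adjusted p = 1.09e-06). With GC correction 9 of the 12 stayed called. Of the 81 tested elements of the list within 50 kb of a start site, 4 were gained. Most of its gained elements thus lay farther away, as did 57.1% of all gained elements.

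Among neural transcription factors, SoxB, SoxC and Pou3f genes had 3 of 34 elements gained (8.82%) and 0 lost (median 0.10). They were the Sox3 element above, the only 1 of the 3 that stayed called with GC correction, another near Sox11 (2.21, SE 0.19) and another 3.51 kb upstream of Pou3f4 (2.29, SE 0.13). Proneural and Notch genes had 1 of 76 gained (1.32%), with the highest median after the floor plate list, 0.38. That element lay 1.89 kb from Neurod4, a bHLH factor of early neuronal differentiation (chr10:130281619-130282661), with 92.9, 58.8, 104, 120.5 and 92.2 at day 4 and 497, 385, 354, 489 and 451 at day 5. Its log2 difference was 2.23 (SE 0.18, adjusted p = 6.45e-07), and pMN stood higher on both days, at 614 and 1391. Late progenitor factors, which include the NFI and SoxD genes, had 2 of 53 gained (3.77%, near the 2.57% of all tested). These lay in introns of Nfib (2.06) and Sox6 (2.11). Neither call held with GC correction, with either centring, with thinned reads or with 500 nM samples alone. Genes of other progenitor domains had 3 of 86 gained (3.49%, a share near the 2.57% of all tested), near Irx1 (2.22), Irx5 (2.30) and Msx1 (2.99), with a median of 0.03. The elements at Pax6 (-0.08), Irx3 (-0.14) and Dbx1 (0.07) were within the spread of the samples, with adjusted p of 0.501, 0.313 and 0.596.

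Of the patterning pathways, the Hox genes had 3 of 52 elements gained (5.77%) and 0 lost (median 0.14), of which 1 stayed called with samples centred on their median or reads thinned. They lay at Hoxb4 and Hoxc4, both of the anterior part of their clusters. The intron element of Hoxb4 (chr11:96322025-96327345) had 409.8, 307, 434, 367 and 412 at day 4 and 1734, 1635, 1724, 1852 and 1686 at day 5, a log2 difference of 2.17 (SE 0.10, adjusted p = 3.68e-08). With samples centred on their median or reads thinned it was just under the threshold. Retinoic acid and Meis/Pbx genes had 2 of 89 gained (2.25%, like all tested elements), both in Meis1, a homeodomain partner of Hox proteins, and 1 lost, in an intron of Rxra, a retinoid receptor gene (-2.02, SE 0.28, called in 13 of 17 alternatives). The stronger at Meis1 (chr11:18906582-18908000) rose from a mean of 24.3 ± 9.51 to 194 ± 21.4 (SD, n = 5 each), a difference of 3.02 (SE 0.21, adjusted p = 2.59e-07). Wnt response genes had 2 of 48 gained (4.17%, against 2.57% of all tested). They lay near the ligand gene Wnt7b (2.41, SE 0.27) and in Tcf7l2, which encodes an effector of the pathway (2.09, SE 0.22). FGF-ERK response genes had 0 of 59.

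Genes of earlier and of other cells had few calls. NMP and posterior growth genes had 0 of 20 elements called in either direction and a median of -0.24. The element at T had 335, 219.9, 287, 165 and 235 at day 4 and 145, 138, 133, 152 and 146 at day 5, with no overlap, a log2 difference of -0.76 (SE 0.18, adjusted p = 0.00309) below the fold threshold. Cdx2 (-0.89, SE 0.19, adjusted p = 0.000625) and Nkx1-2 (-0.57, SE 0.11, adjusted p = 0.00183) were like it. Early embryonic factors such as Lin28a and Hmga2 had 0 of 27 called, and neuronal genes 0 of 57 with a median of 0.03. Neural crest and mesoderm genes had 1 of 41 gained (2.44%), 153 kb from Foxd3 (3.78, SE 0.38).

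**Figure D4:**
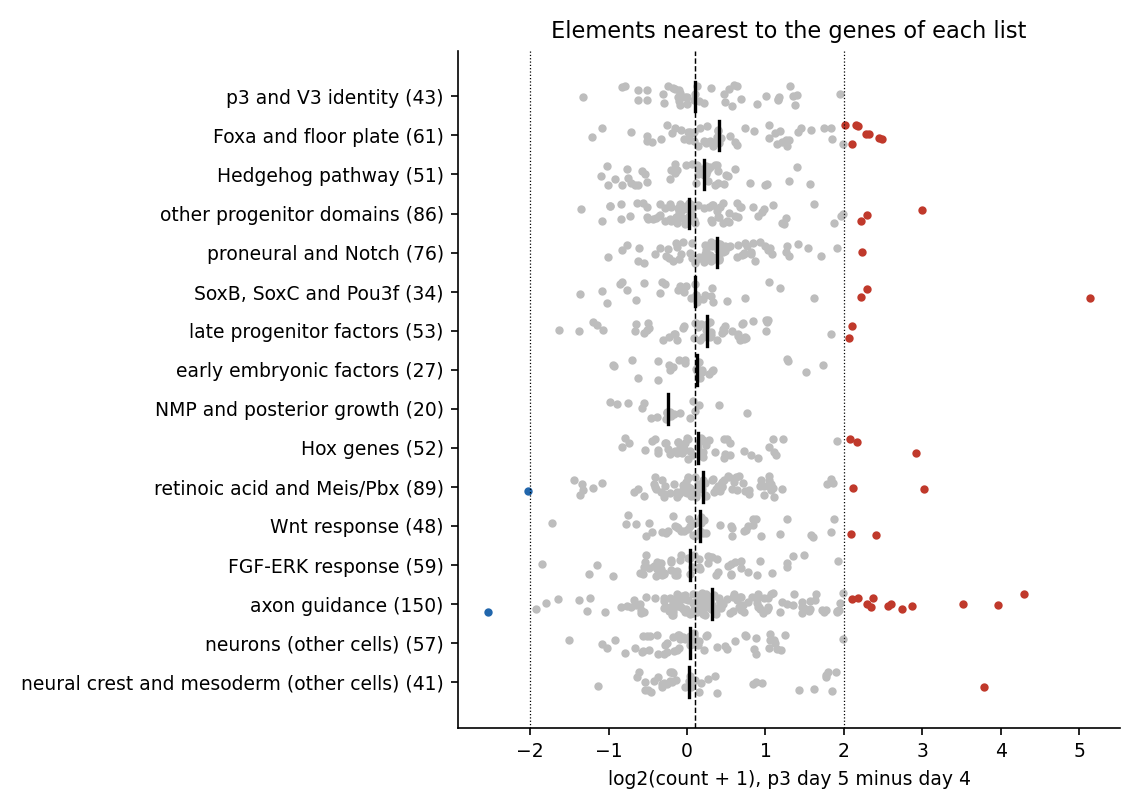
Log2(count + 1) of p3 at day 5 minus day 4 (horizontal axis) for each tested element nearest to the genes of a list (rows, with the number of tested elements), red for gained, blue for lost and gray for the rest. Short bars are the list medians, the dashed line is the median of all tested elements (0.10) and dotted lines are the thresholds; the 8 gained elements of the Foxa and floor plate list reach 2.49 and those of the axon guidance list reach 4.29.

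Most of the day 4 to day 5 change of p3 went the same way in the other progenitors. In pMN 1226 of 31131 elements were called (3.94%), in p2 1338 of 31150 (4.3%) and in p0-1 1669 of 30628 (5.45%). Of the 779 gained in p3, 310 were also gained in pMN, which is 39.8% of the p3 set and 28.8% of the pMN set, 302 in p2 and 333 in p0-1. In pMN 772 of the 779 had a positive difference, with a median of 2.04 against 0.08 for all elements. All 82 lost elements had a negative difference in pMN, p2 and p0-1, with medians of -1.98, -2.16 and -1.78. Passing the threshold in p3 and not elsewhere held for 381 of the gained elements, but that is no test of a difference.

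The difference between the change in p3 and the change in pMN was tested by an interaction of day and cell type. Of 30875 elements 33 had a change in p3 above that in pMN (0.107%) and 33 a change below it (0.107%), with 6590 at an unadjusted p under 0.05. The filter was on the mean over both cell types and days. An element could therefore pass it through 1 cell type on 1 day, and a low level elsewhere is then no separate support. In the first set p3 rose and pMN fell in 23 of the 33, with a median difference of 0.95 in p3 and -1.51 in pMN. The p3 medians were 132, 342 and 457 at days 4, 5 and 6, and those of pMN 103, 36.6 and 42.0. Single elements already differed between the cell types at day 4, in both directions, as at Mir466f-4 (58.6 in p3, 10.5 in pMN) and Fmn2 (225 and 629). In the second set the difference was positive in pMN in 32 of 33, with a median of 2.59, and in p3 in 23 of 33, with a median of 0.42. The level medians were 69.5, 419 and 715 in pMN and 54.1, 52.2 and 68.0 in p3. Of the first set 8 and of the second set 1 were themselves called in p3. The count of the first set rested on single libraries: it was 18 without day 4 replicate 1 at 100 nM, 21 without day 5 replicate 3 at 100 nM and 20 without day 5 replicate 3 at 500 nM of p3. It was 57 without day 4 replicate 3 at 100 nM, 56 without day 4 replicate 3 at 500 nM and 62 without day 5 replicate 2 at 500 nM of p3, and 54 without day 5 replicate 3 at 500 nM of pMN. That of the second set was between 23 and 41.

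**Figure D5:**
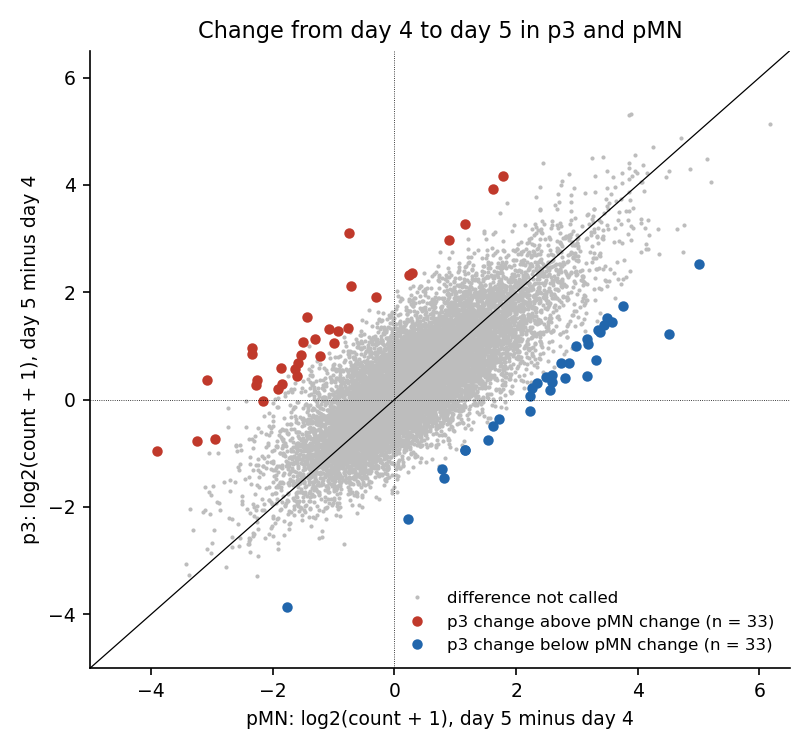
Log2(count + 1) at day 5 minus day 4 in pMN (horizontal axis) and p3 (vertical axis), each point an element of the 30875 tested in both, with the diagonal of equal change. The 33 elements whose p3 change was above that of pMN lie above the diagonal, 27 of them with a negative difference in pMN. The 33 below it have p3 differences from -3.87 (4933427I22Rik) to 2.53 (Pdha2).

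The largest difference was 103 kb from Mir466f-4 (chr13:71003402-71004656, intergenic). In p3 it had 32.3, 20.9, 69.7, 79.0 and 91.5 at day 4 and 552, 304, 543, 280.3 and 706 at day 5, while the pMN means were 10.5 and 5.67. It opened in p3 and stayed closed in pMN, and the difference of the changes was 3.82 (SE 0.57, adjusted p = 1.99e-05). It passed the filter only through the p3 samples of day 5. In an exon of Fmn2, a formin gene, the difference of 3.41 (SE 0.45, adjusted p = 1.18e-05) came from pMN, which went from 629 to 77.4 while p3 had means of 225 and 274. The third was in an intron of the Mir181b-2 region, 3.24 (SE 0.71, adjusted p = 0.000844), with pMN from 210.1 to 39.1 and p3 from 73.8 to 108. Such elements were thus of more than 1 kind, with p3 opening or pMN closing.

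The Foxa2 element at 32.2 kb and the start site of Ferd3l were in the first set. The former had a difference of 2.80 (SE 0.53, adjusted p = 0.000397), pMN going from 45.7 to 28. The Ferd3l start site (chr12:33926966-33929399) had 151, 149.8, 205, 234 and 260.1 in p3 at day 4 and 539, 344, 528, 387 and 622 at day 5, against pMN means of 60.2 and 31.8, a difference of 2.16 (SE 0.36, adjusted p = 0.000104). The FOXA motif was in the central 300 bases of 11 of the 33 elements of the first set, 33.3% (95% exact binomial interval 18.0 to 51.8), and in 0 of the 33 of the second. It was in 3.57% of all elements tested in both cell types, promoters included. Other motifs differed between these small sets the other way. The E box was in 18.2% of the first and 60.6% of the second (33.6% of all tested). MEIS had 18.2% and 45.5% (19.6%), and NKX2 3.03% and 21.2% (5.43%). No share was tested.

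The largest differences in the other direction were in an intron of Nrxn3, which encodes a presynaptic neurexin, in an intron of Acaca, which encodes an acetyl-CoA carboxylase, and near Pdrg1. The Nrxn3 element (chr12:89041471-89042330) had 6.06, 5.69, 11.8, 6.07 and 9.0 in p3 at day 4 and 15.2, 14.0, 23.7, 16.5 and 27.4 at day 5, against pMN means of 16.6 and 394. It stayed nearly closed in p3, and the difference was -3.30 (SE 0.42, adjusted p = 3.56e-06). It passed the filter only through the pMN samples of day 5. At Acaca p3 had means of 28.4 and 41.8 and pMN 69.4 and 607, a difference of -2.69 (SE 0.38, adjusted p = 1.13e-05), and at Pdrg1 p3 had 24.2 and 41.2 and pMN 36.6 and 350.2, a difference of -2.55 (SE 0.49, adjusted p = 0.000104).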

How the data were processed

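The authors ran nf-core/atacseq against mm10 with peaks from MACS, and deposited counts of the consensus elements (those in at least 2 replicates) after the variance-stabilizing transformation of DESeq2, on a log2 scale. HOMER classes and nearest start sites come from a deposited annotation. The transformation was inverted here to normalized counts and reads, of which 100.0% below 1000 were whole in every p3 sample, to within 3.39e-11. Coordinates were checked on GRCm38, where 90.3% of promoter elements lay at an end of their gene.

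Elements with a mean above 100 normalized counts were tested with limma 3.58.1 in R 4.3.3, two-sided, by linear models of the deposited log2 values with a variance trend, terms for day and SAG, and Benjamini-Hochberg adjustment. Fold changes are on log2(normalized count + 1). On simulated data in which 200 of the 30325 elements changed, all 200 passed the p threshold at a 2-fold and at a 6-fold change, with 0 false calls. The simulated reads were independent between samples, with a single fixed dispersion and no replicate or GC effect. Unchanged elements had no difference at all, so a call above the fold threshold was hardly possible among them. The simulation therefore gives no error rate for the real samples. Detection near the fold threshold was not simulated. Intervals cover counting error only. Replicates are independent differentiations by the legends of the study.

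Named elements were the 5 largest increases and decreases without overlap, the genes with most called elements, up to 3 called elements per list and direction (1 per gene), the element nearest the start of each marker gene, and the 3 largest p3 to pMN differences each way. Elements at Nkx2-2, further elements at Foxa2, Shh and Ferd3l, and other genes of the axon guidance list were named after their values were seen. The samples, lists and tests were chosen with earlier results of these data known. Alternatives covered filter, fold, scale, pseudocount, centring, covariates, GC, thinning, voom, replicate block and left-out replicates. Motifs were searched with Python 3.11.15 in sequences read by samtools 1.23.1. Day 6 and NMP samples entered no main test. They entered the alternative with all samples in the fit, which called 803 elements in p3. Expression, binding and mutant data were not analysed here, and 1 gene of the Foxa and floor plate list is counted but not reported by name.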

Additional observations from a re-analysis of the deposited data

Results flagged for a closer look

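Among 170 groups of p3 samples at the named elements, 7 (4.12%) held a sample far from the others by Dixon's criterion, where chance alone gives about 1 in 20. They were replicate 2 at 100 nM on day 4 at Tmem161b, 391 kb away (13.3, low), Rxra (265, high), Spon1 (68.3, low) and the 6430503K07Rik element that spans Nkx2-2 (2259.9, low). Replicate 1 at 100 nM on day 4 was high at the more distant intron element near Nkx2-2os (513), replicate 1 at 500 nM on day 4 was low at Cdx2 (454), and replicate 1 at 100 nM on day 5 was high at Kif5c, 14.1 kb into the gene (736).

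The change from day 4 to day 5 differed between p3 and pMN at 66 elements by the interaction term. The 6 named by the rule had differences of 3.82 near Mir466f-4, 3.41 at Fmn2, 3.24 at Mir181b-2, -2.55 near Pdrg1, -2.69 at Acaca and -3.30 at Nrxn3.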

How the results depend on the processing

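No called value changed sign. Of the values of named elements in p3 under alternatives, 2150 kept their side of the threshold, 114 lost the call and 12 gained it, and all 153 values of the difference between p3 and pMN kept their side. The 861 called elements of p3 became 5037 without a filter on the mean, 1824 with a mean above 50 and 4012 with a log2 fold above 1. The 66 elements that differed between p3 and pMN became 1507 without the filter, 1124 with the lower fold and 38 with folds from the deposited log2 values. Without the filter and with the lower fold, pMN gave 6710 and 4823 calls, p2 7023 and 5050, and p0-1 7043 and 5094. Leaving out each replicate gave 730 to 1053 calls in p3 and 47 to 95 for the difference from pMN, the extremes of the latter without p3 day 4 replicate 1 at 100 nM and without replicate 3 at 500 nM. Over whole elements the motif shares in the gained set were 90.6% for SOX, 34.5% for homeodomain, 18.5% for FOXA and 14.6% for KLF/SP, against 57.4%, 13.1%, 5.65% and 4.88% in the center, and over all tested whole elements 79.7%, 22.7%, 17.7% and 59.7%. With a log2 fold above 1, promoter-TSS elements were 1.21% of the gained. The gained elements were then 23 for the Foxa and floor plate list (37.7%) and 40 for axon guidance (26.7%), against 10.4% of all tested. At the main threshold, those within 50 kb of a start site were 1 and 4.

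Same-numbered replicates of the 2 days correlated in their deviations with a median r of 0.26 over 8 pairs, the lowest being 0.00412. Differently numbered ones had -0.14. Within a day the medians were 0.37 over 4 same-numbered pairs and -0.096 for the others. These are the numbers in the sample titles. By the numbers in the descriptions, the medians for same-numbered and other pairs were 0.17 and -0.11 across days, and -0.04 and 0.04 within a day. Deviations from a group mean cancel out within the group, so the negative medians partly follow from the positive ones and are no separate support. By the title numbers same-numbered samples were more alike, yet the main models held no replicate term. Nor did they pair p3 with pMN sorted from the same dish. Limma with voom on the recovered reads called 678 elements in p3 (560 gained, 118 lost). With a replicate block 953 elements of p3 were called (854 gained, 99 lost), and 861 with the numbers in the descriptions. The block gave 77 for the difference from pMN and 0 for the difference between concentrations. For the difference from pMN, limma with the block had 8614 elements at an unadjusted p under 0.05, against 6590 without it.

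Depth limits elements near the filter: the shallowest library had 9298160 reads in elements, and levels under 10 normalized counts rest on few reads. The threshold on the fold leaves out smaller changes at promoters and at most marker genes.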
